A study of Mus musculus with 2 samples.

Results

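The AP-1 transcription factors were examined here through 9 genes, taken by name: Fos, Fosb, Fosl1 and Fosl2 of the Fos family, Jun, Junb and Jund of the Jun family, and the related factors Atf3 and Batf3. Every probe set that the array annotation assigned to one of these symbols alone was used, which gave 13 probe sets out of 45101 and all 9 genes out of 18193. They were measured in 2 epithelial populations sorted from the back skin of CD-1 mouse pups at postnatal day 4, with 1 expression array for each. All pups carried K14-RFP, a red reporter driven by the keratin 14 promoter of basal keratinocytes, and Sox9-EGFP, a green reporter for the follicle stem cell factor Sox9. The early bulge sample was bright for both reporters, and the non-bulge outer root sheath (ORS) population was bright for red and negative for green. The bulge is the follicle's stem cell niche, and the ORS is its outermost epithelial layer. The labels do not say how many pups were pooled.

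AP-1 is a family of dimers of basic leucine zipper (bZIP) proteins. Jun proteins pair with themselves or with Fos proteins and bind the TRE element, while ATF members lean towards the related CRE. Several AP-1 genes are immediate early genes, transcribed within minutes of growth factor, stress or wounding signals that act through MAP kinases and serum response factor. In skin, AP-1 is known for its part in keratinocyte proliferation, differentiation and wound repair. Enzymatic dissociation is known to induce it as well, and both populations had passed through dispase, collagenase and trypsin before sorting.

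Most AP-1 genes had a moderately higher signal in early bulge. Of the 9 genes, 8 were higher there and Batf3 was higher in ORS. The genes at least 2-fold higher in early bulge were Fosl2, Fosb and Atf3. None was at least 2-fold higher in ORS and none reached 4-fold. Over all 13252 genes with a signal at or above a floor of 57.8 on at least 1 array, 7.3% were at least 2-fold higher in early bulge, 4.78% were 2-fold or more higher in ORS, and 1.87% were at least 4-fold higher in early bulge. A higher early bulge signal at any size was seen in 53% of them. The median log2 ratio, early bulge over ORS, was 0.76 for the 9 genes and 0.04 for all measured genes. Each population was measured once, so these ratios come without replicates and without p-values. Array and population cannot be told apart, and fewer cells of a type cannot be told apart from less RNA per cell.

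The promoters of the 3 genes at least 2-fold apart are shown first, with those of Fos and Jun, the founding members of both families, beside them. Each run is the 150 bases before the RefSeq transcription start on build GRCm38.p6, written 5′ to 3′ on the strand of the gene. Capitals mark TATAAA, the TRE variant TGACATCA and the CRE half-site TGACG, the last of which appears as CGTCA where it lies on the opposite strand.
Fosl2 (chr5:32136322-32136471, plus strand): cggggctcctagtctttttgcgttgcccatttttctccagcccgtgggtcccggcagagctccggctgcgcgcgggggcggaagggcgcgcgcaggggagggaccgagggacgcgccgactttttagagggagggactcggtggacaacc
Fosb (chr7:19310046-19310195, minus strand): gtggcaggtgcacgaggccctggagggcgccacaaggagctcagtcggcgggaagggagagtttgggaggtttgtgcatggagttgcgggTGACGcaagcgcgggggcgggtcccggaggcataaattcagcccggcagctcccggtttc
Atf3 (chr1:191183334-191183483, minus strand): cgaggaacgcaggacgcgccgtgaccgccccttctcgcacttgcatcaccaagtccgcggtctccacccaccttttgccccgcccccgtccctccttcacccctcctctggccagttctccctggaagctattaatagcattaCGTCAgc
Fos (chr12:85473740-85473889, plus strand): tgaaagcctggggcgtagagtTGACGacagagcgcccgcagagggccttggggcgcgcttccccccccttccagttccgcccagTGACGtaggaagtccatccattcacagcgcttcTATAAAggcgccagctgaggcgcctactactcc
Jun (chr4:95052223-95052372, minus strand): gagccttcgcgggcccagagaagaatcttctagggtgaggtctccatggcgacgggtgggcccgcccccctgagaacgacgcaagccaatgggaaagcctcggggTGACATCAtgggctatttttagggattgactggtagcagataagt

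The RefSeq promoter table held 8 of the 9 genes, all but Fosl1. In their 250 bases before the start, searched on both strands, neither the TRE (TGACTCA) nor the CRE (TGACGTCA) was found, and neither was a CArG box, the element bound by serum response factor. Over all 32851 promoter entries, windows of the same length held these motifs in 4.46%, 1.55% and 1.47%. Sequence further upstream was not searched, so the genes cannot be said to lack these elements. TGACATCA was found in Jun alone, from 45 to 38 bases before the start, and in 2.93% of all entries. The half-site TGACG, which is also part of the CRE, was found in 4 of the 8 promoters (Fos, Fosb, Junb and Atf3) and in 17.8% of all entries. Fos had it at 129 and at 66 bases before the start, Fosb at 60 and Junb at 106. Atf3 had it on the opposite strand, from 7 to 3 bases before the start. TGACATCA and TGACG were later additions to the search, TGACG after the sequences had been seen. Fos was the only one of the 8 with TATAAA, from 33 to 28 bases before the start, against 12.4% of all entries. The GC box GGGCGG, which overlaps none of the other motifs by its letters, was found in 6 of the 8 (all but Junb and Jund) and in 32.7% of entries. CCAAT was found in Jun and Junb and in 33.8% of entries. The median GC content of these windows was 64.8% for the 8 genes and 52.4% for all entries. Of the 3 genes at least 2-fold apart, Fosl2 held the GC box and none of the other motifs, and Fosb and Atf3 held the GC box and TGACG.

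**Figure D1:**
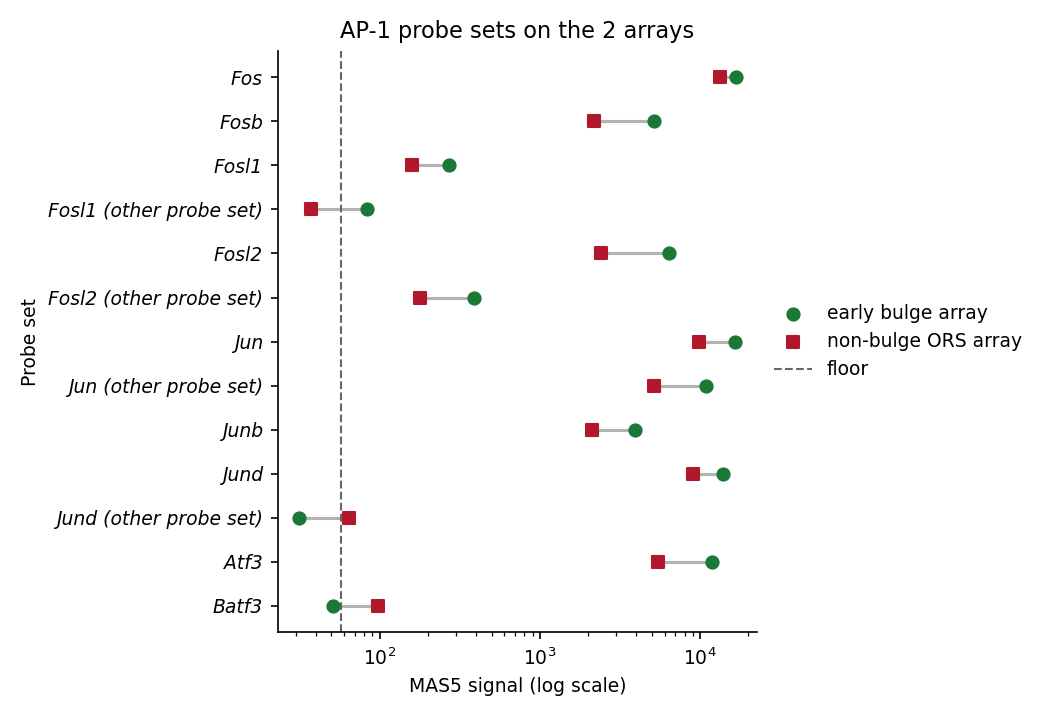
Signal of each AP-1 probe set on the early bulge array (green circles) and the non-bulge ORS array (red squares), on a log scale, with the floor of 57.8 as a dashed line; each point is 1 array. The early bulge point lies to the right in 11 of the 13 probe sets, and the exceptions are Batf3 and the dim probe set of Jund.

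All 4 Fos genes had the higher signal in early bulge, by differing amounts. Fosl2, which encodes Fra-2, a Fos protein without the strong activation domain of Fos itself, had signals of 6403 in early bulge and 2392 in ORS (probe set 1437247_at), a 2.68-fold difference. A dimmer probe set of Fosl2 (1422931_at) gave 385.6 and 177.8, a 2.17-fold difference in the same direction. Both probe sets of this gene were thus at least 2-fold apart. Fosb, an immediate early Fos protein with a full activation domain, had signals of 5183 and 2181 (1422134_at), a 2.38-fold difference on its only probe set. Fosl1, which encodes Fra-1 and is itself a target of AP-1, was much less clear of the floor on both arrays, with 270.1 and 159.3 (1417487_at), a 1.70-fold difference. Its other probe set (1417488_at) gave 83.4 and 37.2, the second below the floor, so the early bulge signal was at least 1.44-fold higher. Fos, the classical immediate early gene, had a high signal on both arrays, 16605 and 13273 (1423100_at), and the smallest difference of the family at 1.25-fold. The log2 ratios of the 4 genes ran from 0.32 for Fos to 1.42 for Fosl2.

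The 3 Jun genes differed by less than 2-fold on the probe sets that represent them, the brightest of each gene. Jun, the main partner of Fos proteins, had signals of 16583 in early bulge and 9770 in ORS (1417409_at), a 1.70-fold difference. Its second probe set (1448694_at) gave 10829 and 5169, a 2.09-fold difference, so the 2-fold line fell between the 2 probe sets of this gene. Junb, a weaker activator that can oppose Jun, had 3939 and 2109 (1415899_at), a 1.87-fold difference. Jund, the member least tied to stimulation, had 13786 and 9074 (1449117_at), a 1.52-fold difference. A further probe set of Jund (1440265_at) gave 31.6 and 64.4, the first below the floor and the second just above it, and was the only second probe set to point the other way. Its ORS signal was at least 1.11-fold higher. The log2 ratios of the 3 genes ran from 0.60 to 0.90.

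Atf3 and Batf3, which lie near each other on chromosome 1 of GRCm38.p6 with Fam71a as the only protein-coding gene between them, pointed in opposite directions. Atf3, a stress-induced factor that often represses its targets, had signals of 11766 in early bulge and 5424 in ORS (1449363_at), a 2.17-fold difference. Batf3, a small bZIP factor without an activation domain and best known from dendritic cells, had 51.2 and 97.8 (1453076_at). The early bulge value lay below the floor, so the ORS signal was at least 1.69-fold higher. Batf3 was the only one of the 9 genes with a representing signal below the floor on either array. Markers of immune cells, where Batf3 is best known, were mostly dim. Of 10 such markers, 7 were below the floor in early bulge and 7 in ORS, among them the pan-leukocyte gene Ptprc (47.0 and 28.5) and the Langerhans cell gene Cd207 (36.0 and 6.56). The other 3 were above the floor on both arrays, in a range like that of Batf3. Lyz2 (61.6 and 108.8) was higher in ORS, and Cd74 (147.1 and 87.6) and Csf1r (150.5 and 134.1) were higher in early bulge. Another probe set of Csf1r gave a log2 ratio of -0.17.

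Ordered by log2 ratio, the genes were Fosl2, Fosb, Atf3, Junb, Jun, Fosl1, Jund, Fos and Batf3. Neighbours from Fosl2 to Fos were between 0.002 and 0.28 apart on the log2 scale. The only measure of technical spread was the root mean square difference in log2 ratio between probe sets of one gene, 0.51 over 15292 pairs that were above the floor on both arrays. This spread comes from the same 2 arrays and pools bright and dim genes, so it holds no variation between arrays, sorts or pups. No neighbours between Fosl2 and Fos were further apart than 0.51. Fosl2 and Fos themselves were 1.10 apart, and Fosl2 and Junb 0.52. The difference between the 2 probe sets of Fosl2 and that between the 2 probe sets of Jun were both 0.30, and that of Jund, with its dim probe set taken without the floor, was 1.63.

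**Figure D2:**
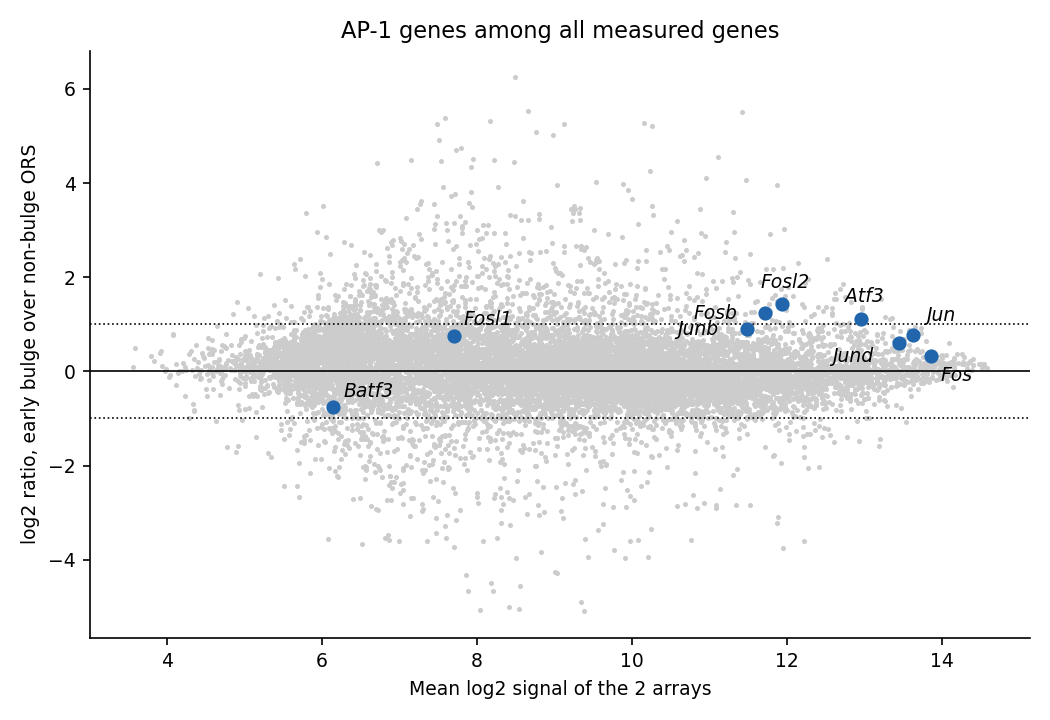
Log2 ratio of early bulge over non-bulge ORS against the mean log2 signal of the 2 arrays for the 13252 measured genes (grey) and the 9 AP-1 genes (blue); dotted lines mark 2-fold. The 7 AP-1 genes with signals of 1000 or more on both arrays stand at the bright end, where the grey cloud is narrow, and all 7 lie above 0.

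Against all measured genes, 3.82% had a larger log2 ratio than Fosl2, 4.84% a larger one than Fosb and 6.03% a larger one than Atf3. For Fos the share was 29.5%. Ratios of bright genes spread less than those of dim ones, so the share was also taken over the 4040 genes with signals of 1000 or more on both arrays, a limit chosen after the values were seen. Of these, 2.67% were at least 2-fold higher in early bulge and 42.7% were higher there at any size, with a median log2 ratio of -0.07. The 7 AP-1 genes in that range (all but Fosl1 and Batf3) were all higher in early bulge, 3 of them at least 2-fold, with log2 ratios from 0.32 to 1.42 and a median of 0.90. The 3 genes whose pair of log2 signals lay nearest to that of Fosl2, by Euclidean distance over the 2 arrays, were Acsl5 (distance 0.06), Efnb2 (0.09) and Bcl11b (0.12). Acsl5 activates long-chain fatty acids, Efnb2 is an ephrin ligand and Bcl11b a zinc finger transcription factor, and each was between 2.46-fold and 2.81-fold higher in early bulge.

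Genes that respond to the same stimuli as AP-1 were shifted the same way. Of 30 other immediate early genes, all 30 were measured and all 30 had the higher signal in early bulge, against 53% of all measured genes. For 7 of them the difference was at least 2-fold, and the median log2 ratio of the list was 0.82. Socs3, a feedback inhibitor of cytokine receptors, had signals of 11284 and 3535 (3.19-fold). The antiproliferative gene Btg2 had 8691 and 3387 (2.57-fold), and Zfp36, which destabilises AU-rich messenger RNAs, had 8783 and 3633 (2.42-fold). The orphan nuclear receptor Nr4a3 had 588.4 and 241.2 (2.44-fold), but another of its probe sets gave a log2 ratio of -0.14. Egr1, named after its value was seen, was like Fos in being bright on both arrays and little apart, at 21367 and 16570 (1.29-fold). Another probe set of Egr3, also named after its value was seen, gave -0.72 where the representing one gave 0.19.

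Negative regulators of MAP kinase signalling and heat shock genes, some of which dissociation can also induce, were less one-sided as lists. Over all measured genes, 53% were higher in early bulge and 7.3% were at least 2-fold higher there. Of 15 measured dual specificity phosphatases, Sprouty and Spred genes, 10 were higher in early bulge, 2 of them at least 2-fold (median log2 ratio 0.26; 8 were higher after each other scaling). These 2 were Dusp4 (768.0 and 208.9, 3.68-fold) and Dusp5 (683.8 and 216.9, 3.15-fold), phosphatases that act on ERK in the nucleus. Dusp1, bright on both arrays and named after its value was seen, had 16592 and 9018, a log2 ratio of 0.88. Dusp8, a phosphatase of stress-activated kinases, had a log2 ratio of 0.94, and the receptor kinase antagonist Spry1 had 1427 and 2849, just under 2-fold higher in ORS and past it after median centring (-1.21), when 2 of the list were. Of 17 measured heat shock genes, 12 were higher in early bulge, with a median of 0.26 (9 after median centring, median 0.04), and Bag3, an Hsp70 co-chaperone, was the only one at least 2-fold apart (1777 and 860.5, 2.07-fold), which no longer held after median centring (log2 ratio 0.83). The small heat shock protein Hspb1 (0.93) and the co-chaperone Dnajb1 (0.75) followed, and the Hsp70 relative Hspa4 had -0.73, with another probe set at 0.21. How far dissociation set the levels of the AP-1 genes was not tested.

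**Figure D3:**
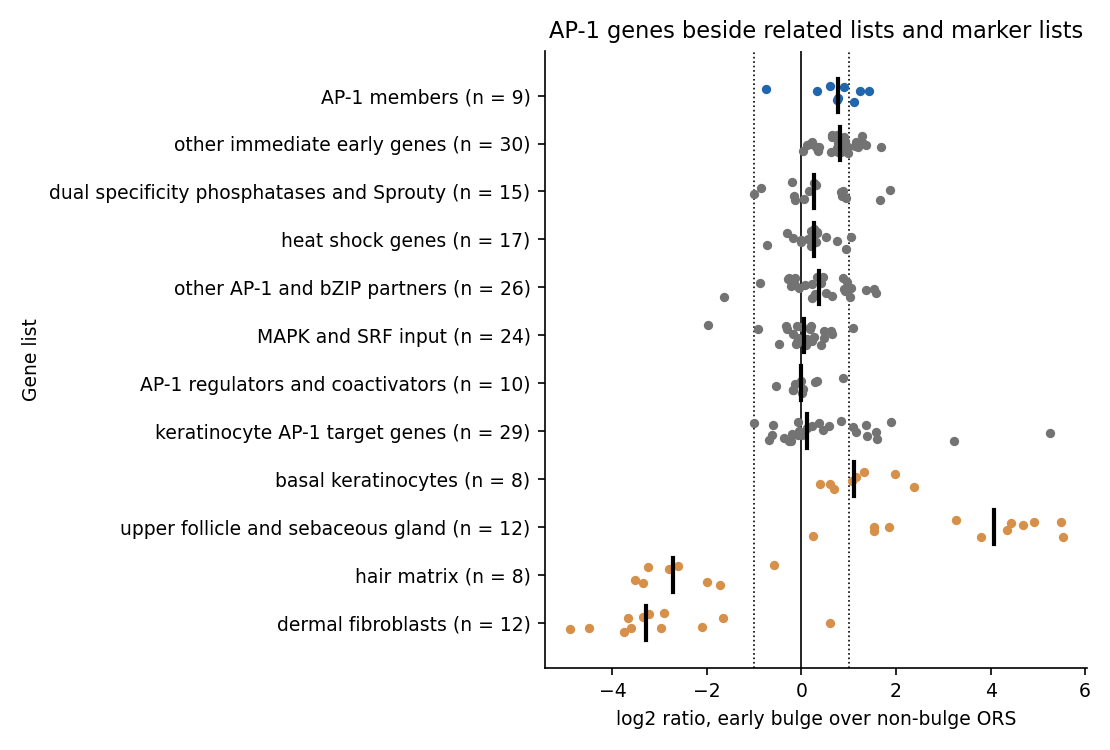
Log2 ratio of early bulge over non-bulge ORS for the measured genes of each list (points) and the median of the list (black bar); AP-1 genes are blue, related gene lists grey and cell type markers orange, and dotted lines mark 2-fold. The median was 0.76 for the AP-1 genes, 0.82 for the other immediate early genes and 0.06 for the MAP kinase list.

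The kinases and factors that act on AP-1 genes were mixed, and their balance moved with the scaling. As reported, 53% of all measured genes were higher in early bulge, 7.3% at least 2-fold, and 4.78% were at least 2-fold higher in ORS. Of 24 measured genes of the MAP kinase and serum response factor list, 13 were higher in early bulge and 11 in ORS (median log2 ratio 0.06), with 1 at least 2-fold apart each way. Its median was below 0 under the 3 other scalings, from -0.16 to -0.03. After median centring 7 of the 24 were higher in early bulge, none of them at least 2-fold, and 2 were at least 2-fold higher in ORS. Mapk13, the p38 delta kinase of epithelia, was 2.12-fold higher in early bulge (1134 and 535.8), a log2 ratio of 1.08 that was 0.87 after median centring. Mapk12 was at least 3.93-fold higher in ORS (45.2 and 227.5), but another probe set gave a log2 ratio of 0.21. Srf, which binds CArG boxes, had a log2 ratio of 0.64, and its partner Elk3 one of -0.92. None of 10 measured regulators and coactivators of AP-1 was at least 2-fold apart (median -0.01). The largest ratio there was that of the coactivator Ncoa1 at 0.87, followed by the scaffold Men1, which binds Jund, at -0.54. Fbxw7, which marks Jun for degradation, had 0.33, and other probe sets gave 0.22 for Men1 and 1.03 for Fbxw7. Jdp2, a repressor that dimerises with Jun and is the next protein-coding gene after Fos on chromosome 12, had 631.9 and 514.9, a log2 ratio of 0.30.

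Among 26 measured genes of other bZIP factors, 5 more were at least 2-fold higher in early bulge beyond the AP-1 genes themselves, and 1 in ORS. The median log2 ratio was 0.36, and 18 were higher in early bulge. Over all measured genes, 53% were higher there, 7.3% were at least 2-fold higher there and 4.78% were at least 2-fold higher in ORS. Maff, also among the immediate early genes, and Jdp2 stand in this list as well. The C/EBP factors of epidermal differentiation were among the 5: Cebpa had signals of 1703 and 657.9 (2.59-fold), and Cebpd 1793 and 619.0 (2.90-fold), with another probe set of Cebpd at a log2 ratio of 0.63. Nfil3, a repressor of the same wider class, had 737.2 and 245.6, a log2 ratio of 1.59. The remaining 2 of the 5 were Cebpb and Maf, with log2 ratios of 1.05 and 1.03, named after their values were seen. After median centring these 2 fell short of 2-fold (0.83 and 0.81), which left 3 in early bulge, and the repressor Bach2 (-1.09) joined Creb5 in ORS. Creb5, which binds CRE elements and can pair with Jun, went the other way with 789.9 and 2454 (3.11-fold higher in ORS).

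Genes known as AP-1 targets in keratinocytes were mixed, with large ratios in a few. The shares over all measured genes were 7.3% at least 2-fold higher in early bulge, 4.78% in ORS, and 53% higher in early bulge at any size. Of 29 measured targets, 9 were at least 2-fold higher in early bulge and none in ORS. At any size, 18 of these targets were higher in early bulge and 11 in ORS. Their median log2 ratio of 0.11 was below their mean of 0.59. Sprr1a, a cornified envelope precursor, had signals of 1365 and 145.7 (9.37-fold). The wound keratin Krt6a was 38.4-fold higher and Krt10, a keratin of differentiating epidermis, 3.04-fold higher. The cell cycle inhibitor Cdkn1a, which Jun can repress, was 3.70-fold higher. After median centring, quantile and loess scaling the median of this list was -0.003, -0.005 and -0.004. After each of them 14 genes were higher in early bulge, of 29, 28 and 28 measured, and 7, 8 and 8 were at least 2-fold higher there. The crosslinking enzyme Tgm1 (61.9 and 123.8), just under 2-fold higher in ORS as reported, was then at least 2-fold higher there, with log2 ratios from -1.22 to -1.19.

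Markers of several cell types also differed between the arrays. All 8 basal keratinocyte markers were higher in early bulge, from a log2 ratio of 0.40 for Trp63 to 2.38 for Col17a1, with summed signals of 93133 and 46999. Of 12 upper follicle and sebaceous gland markers 11 were at least 2-fold higher in early bulge (summed signals 63960 and 16808), with 5 of the 12 below the floor in ORS. Of 12 dermal fibroblast markers 11 were at least 2-fold higher in ORS, with summed signals of 17660 and 67901, and 2 of the 12, Pdgfra included, were below the floor in early bulge. In ORS the summed signal of these 12 markers was above that of the 8 basal keratinocyte markers (46999). Sums over different genes do not measure shares of cells. Hair matrix markers (7 of 8 at least 2-fold higher, 2346 and 14278) and pericyte and smooth muscle markers (4 of 7, 3639 and 18496) were higher in ORS too. Of 6 endothelial markers, 5 in early bulge and 4 in ORS were below the floor, among them Pecam1 and Cdh5 on both. The 2 measured ones were higher in ORS. Tek had 70.0 and 285.9 (4.09-fold), and Kdr had 18.0 and 76.6, the first below the floor. Of the 8 melanocyte markers 5 were higher in early bulge, with summed signals of 2958 and 3438, and only Kit (121.4 and 860.0) was at least 2-fold apart. The part of these cell types in the AP-1 ratios was not tested. The list of bulge stem cell markers was chosen with earlier results of these data known, so it is no independent check of the labels. Of its 9 genes, 6 were higher in early bulge, 4 of them at least 2-fold, and 1 was at least 2-fold higher in ORS. That one was Cd34 (61.8 and 602.9, 9.75-fold), a surface marker of adult bulge cells, and Lgr5 (-0.11) and Lhx2 (-0.03) were nearly even. Sox9 had signals of 4061 and 676.1 and Krt14 14706 and 6609, so both defining genes were well above the floor in both populations. Another probe set of Sox9 gave a log2 ratio of 0.30. The reporters of both genes set the sort, so their signals are no separate check of the labels either.

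**Figure D4:**
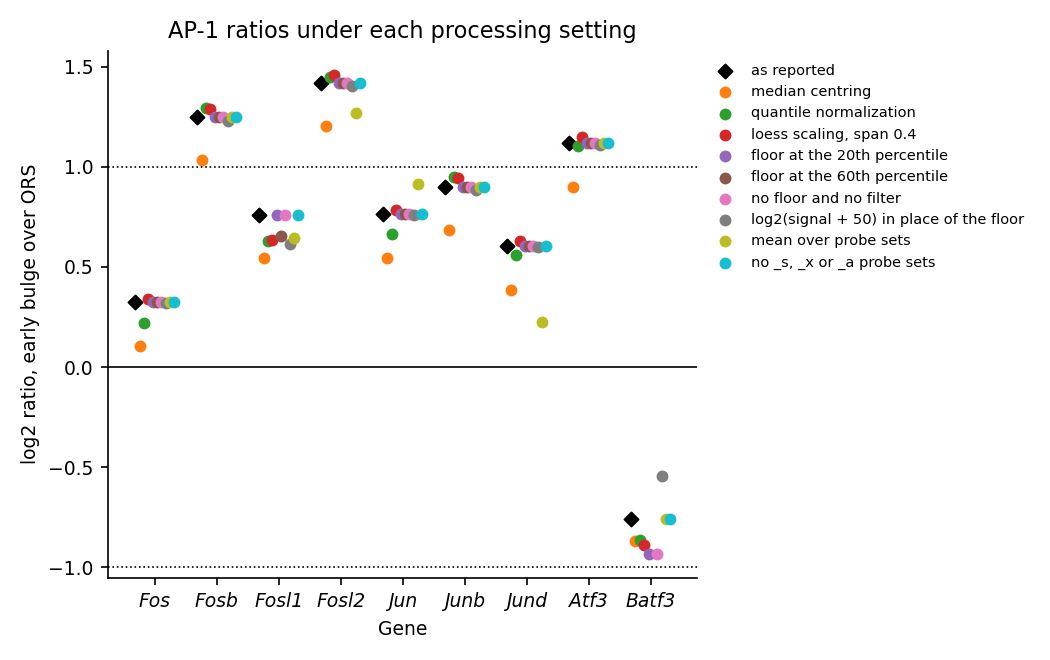
Log2 ratio of early bulge over non-bulge ORS for each AP-1 gene under the reported processing (black diamonds) and 9 alternatives (coloured circles); dotted lines mark 2-fold. Fosl2 and Fosb stay above the 2-fold line under all settings and Atf3 drops below it after median centring.

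The direction of each AP-1 ratio was the same under each of the 10 processing settings that gave it a value. Fosl2 ran from 1.20 to 1.46 on the log2 scale and Fosb from 1.03 to 1.29, both at least 2-fold in 10 of 10 settings. Atf3 ran from 0.90 to 1.15 and was at least 2-fold in 9 of 10. Fos ran from 0.11 to 0.34 and was the nearest of the 8 genes to no difference. Jund ran from 0.22, when its dim probe set was averaged in, to 0.63. Median centring gave the lowest value for 7 of the 9 genes, since it moved the median log2 ratio of all measured genes from 0.04 to -0.17. With it, 41% of all genes at least 2-fold apart were higher in early bulge, against 60.4% as reported, and 37.4% of measured genes were higher there at any size. Under that scaling 8 of the 9 AP-1 genes and 27 of the 30 other immediate early genes were still higher in early bulge, 2 and 4 of them at least 2-fold.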

How the data were processed

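The authors deposited 1 linear signal intensity for each probe set on each array. The submitters' processing notes name MAS5 and Affymetrix Expression Console for this step. Both arrays had a 2% trimmed mean of 500.0, and their medians were 102.2 and 88.0. Neither detection calls nor data of single probes were used here. Symbols came from the platform annotation, and sequences from RefSeq (GRCm38.p6). Protein sequences were not used here. Each gene took its value from its brightest probe set by mean log2 signal, signals under the 40th percentile of all non-control signals (57.8) were set to it, and genes with 1 array at the floor have lower bounds. Of 262 entries in the 16 other lists, 243 matched. With 1 array per group no test was made, and the number of arrays limits precision. Alternatives were 3 scalings, 3 settings of the floor, a pseudocount of 50, and 2 rules for probe sets. The procedure was tested on simulated arrays. Named genes were the 9 members, up to 4 genes of each related list with the largest absolute ratio, and the 3 nearest to the member with the largest ratio. Cell type markers and any other gene named fall outside this rule and were picked after their values were seen. The genes, lists and rules were chosen with earlier results of these data known. Python 3.11.15, pandas 2.3.3 and statsmodels 0.14.6 were used.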

Additional observations from a re-analysis of the deposited data

How the results depend on the processing

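The counts of AP-1 genes held under all 9 alternatives: 8 were higher in early bulge, and 3 were at least 2-fold higher there except after median centring, when 2 were. Their median log2 ratio ran from 0.55 to 0.90. The counts over all genes depended on the floor and the centring. Genes at least 2-fold higher in early bulge numbered 968 as reported, 1870 with the floor at the 20th percentile, 616 with it at the 60th and 2731 with no floor. Those at least 2-fold higher in ORS numbered 634 as reported, 984 with the floor at the 20th percentile, 1601 with no floor and 1017 after median centring. Batf3 had no value with the floor at the 60th percentile, since both of its signals then lay below it. A value was taken as moved when it shifted by more than 0.36 on the log2 scale. This was the spread of a single probe set within the same 2 arrays. Of the AP-1 ratios only that of Jund moved, to 0.22 as a mean over probe sets. No paired analysis was possible because each group has 1 array. Dim values such as those of Batf3 are limited by signal over background.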
